A study of Mus musculus with 2 samples.

Results

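Wnt ligands, their Frizzled receptors and co-receptors, the secreted antagonists that keep them apart, and the proteins that carry the signal to the nucleus were followed in cultured mouse oligodendrocytes and astrocytes. The members were all gene probes whose name in the array files begins with Wnt, Fzd, Sfrp, Dkk, Dvl or Axin followed by a digit, or is Lef1, Tcf7, Wif1, Frzb, Lrp5, Lrp6, Ctnnb1 or Apcdd1. They came to 69 of 41174 gene probes and stood for 50 of 27962 gene names. The rule also asked for Tcf7l1, and 0 probes carried that name.

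RNA of both cell types was hybridised together on each of 2 Agilent 2-colour arrays, which carry 60-base probes. The cells were untreated primary cultures of C57BL/6J mice, a wild-type inbred strain, whose age is not given in the sources used here. Oligodendrocytes were shaken off mixed glial cultures. Astrocytes were the cells that stayed on the dish in serum-containing medium after oligodendrocytes and then microglia had been shaken off, and they were taken up later with trypsin. The cell types therefore also differed in the time and method of harvest, which cannot be told apart from cell type here. The array of replicate 1 had astrocytes in Cy3 and oligodendrocytes in Cy5, and the array of replicate 4 had the dyes exchanged. The study's question was which mRNAs oligodendrocytes carry at higher levels than astrocytes.

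Wnt proteins are secreted lipid-modified ligands that bind Frizzled receptors together with the co-receptors Lrp5 or Lrp6. In the canonical branch, Dishevelled proteins (Dvl) pass the signal on, the destruction complex built on Axin and Apc is held back, and β-catenin (Ctnnb1) reaches the nucleus to act with Tcf and Lef factors. In the oligodendrocyte lineage the pathway is best known for its influence on when precursors differentiate, and Tcf7l2 is its best-studied nuclear factor there.

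Values are given as log2 signals of each sample or as log2 ratios of oligodendrocyte over astrocyte signal, so a negative ratio means a higher signal in astrocytes. Ratios are means ± SD over the 2 arrays (n = 2). A probe was called where limma's test against a ratio of 0 gave a Benjamini-Hochberg adjusted p under 0.05 over all 32563 probes tested. Every adjusted p below comes from that fit unless another setting is named. Signals of different probes cannot be set against each other, because probes differ in how well they bind. The bulk RNA cannot tell fewer cells of a type from less RNA per cell.

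Both arrays separated the labelled cell types. The log2 ratios of the tested probes correlated at a Pearson r of 0.926 between the arrays once the dye swap was turned, across probes that are not independent. All 12 oligodendrocyte markers were called higher in oligodendrocytes (median 3.11), and all 10 astrocyte markers were called higher in astrocytes (median -3.03). Markers of other cells also differed. In oligodendrocytes 9 of 10 microglia, 7 of 9 tested neuron and 7 of 10 fibroblast and meninges markers were called higher. In astrocytes 1 neuron marker, 1 fibroblast and meninges marker and all 7 tested ependyma and cilia markers were called higher. The log2 of the summed microglia markers was 17.36 and 17.67 in the oligodendrocyte samples and 15.72 and 15.78 in the astrocyte samples. That of fibroblast and meninges markers was 16.11 and 16.18 against 14.18 and 14.03, that of neuron markers 14.36 and 14.59 against 12.42 and 12.45, and that of ependyma markers 13.94 and 13.35 against 17.11 and 16.90. Of 5 tested choroid plexus markers 2 were called higher in oligodendrocytes and 1 in astrocytes. Their log2 sum was 11.2 and 11.19 in oligodendrocytes against 11.37 and 11.28 in astrocytes. Of 6 endothelium markers 1 was called higher in oligodendrocytes and 2 in astrocytes. The endothelium sum was higher in astrocytes, at 11.45 and 11.51 against 9.93 and 9.97 in oligodendrocytes. No tested marker of these lists was below background in a cell type on both arrays. Wnt genes are used by several of these cell types, and the part of such cells in the results below was not tested.

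Of the 69 member probes, 59 entered the test, standing for 44 of the 50 genes, because they were well above background in at least 1 cell type on both arrays. Another 9 probes were not well above background, and 1 Ctnnb1 probe was left out for spots marked as outliers. Dkk1, Dkk4, Wnt10b, Wnt2b, Wnt3a and Wnt8a had no tested probe. Of the 59 tested probes, 54 were well above background in every channel.

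The astrocyte side held more members than the oligodendrocyte side. Of the 59 probes, 23 were called higher in astrocytes, 9 higher in oligodendrocytes, and 27 were not called. Over all probes tested, 21.8% were called higher in astrocytes and 18.5% higher in oligodendrocytes, 40.3% in all. A signal at least 2-fold higher on both arrays, counted without a test, was seen for 16 member probes in astrocytes and 5 in oligodendrocytes, while 6.37% and 4.4% of all probes passed that limit (10.8% in either direction). With each gene represented by its brightest tested member probe, 16 of the 44 genes were called higher in astrocytes and 6 in oligodendrocytes, against 23.1% and 19.1% of 21896 genes (42.2% in either direction). The median log2 ratio was -0.17 over the tested member probes and -0.0015 over all probes. All 32 called member probes had the same sign on both arrays, as had 45 of the 59 tested. A call over 2 arrays itself favours a shared sign, so the agreement of called probes is no separate evidence. Setting the zero of the ratio to the spike-in controls, whose mean was 0.69, moved every ratio toward astrocytes by that amount and left 5 member probes called higher in oligodendrocytes and 51 in astrocytes.

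**Figure D1:**
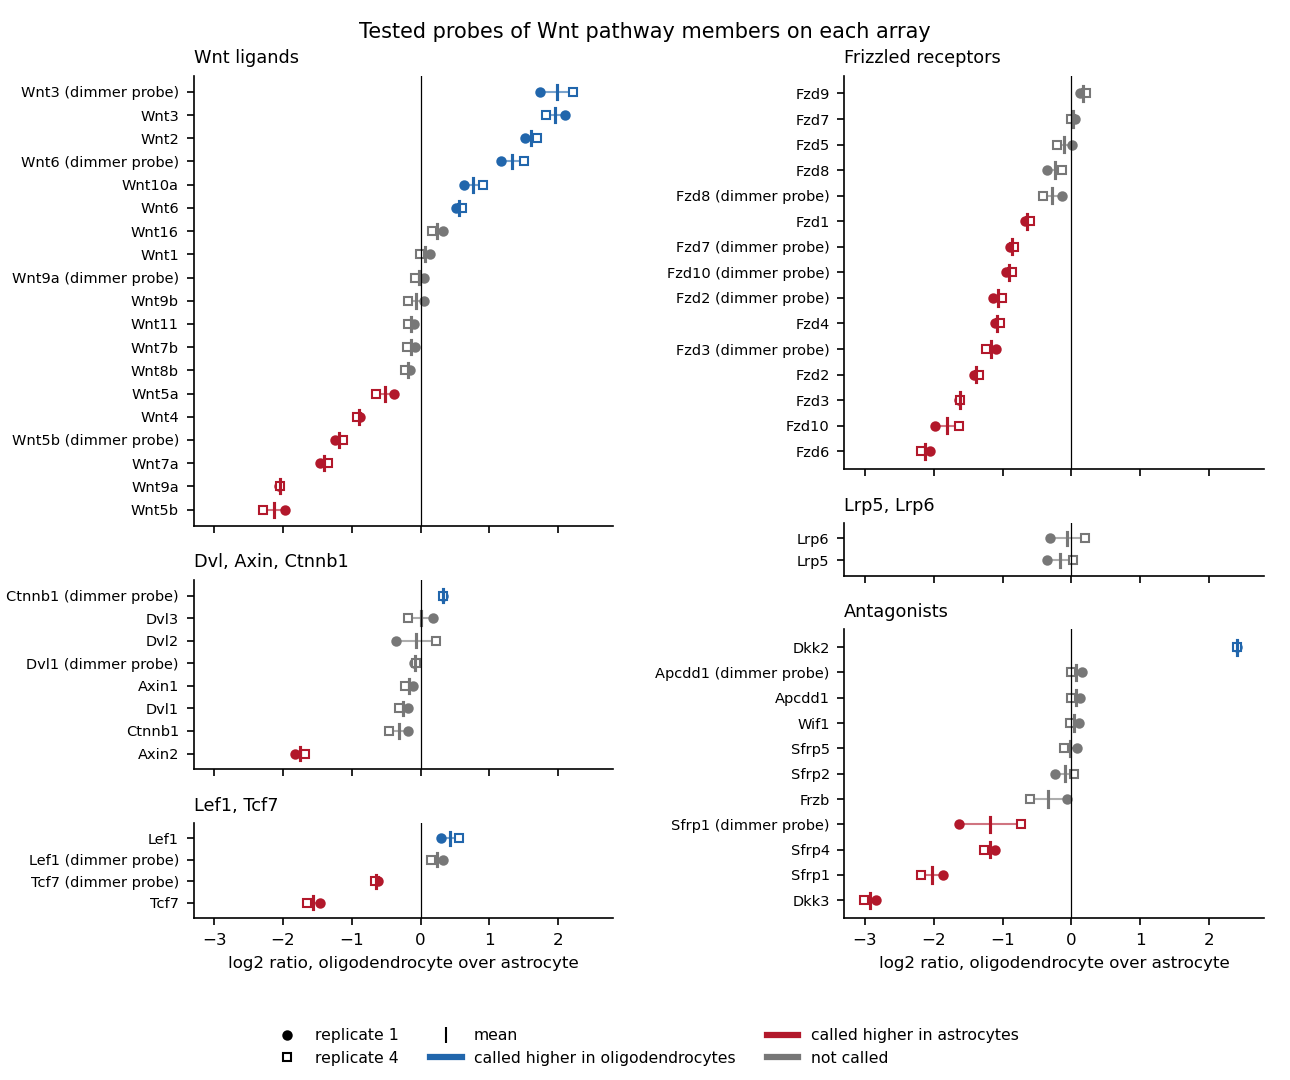
Log2 ratio of oligodendrocyte over astrocyte signal (x axis) for each of the 59 tested member probes, by family; filled circles are replicate 1, open squares replicate 4 and vertical ticks their mean, and the colour gives the call. Wnt ligands lie on both sides of 0, the called Frizzled receptors all lie on the astrocyte side, and Dkk2 (2.41) and Dkk3 (-2.93) mark the ends of the antagonists.

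The Wnt ligands divided between the cell types. Of 19 tested ligand probes, 6 were called higher in oligodendrocytes and 6 in astrocytes, and their median ratio was -0.07. The shares over all tested probes were 18.5% and 21.8%. Wnt3, Wnt2, Wnt6 and Wnt10a were on the oligodendrocyte side, and Wnt5b, Wnt9a, Wnt7a, Wnt4 and Wnt5a on the astrocyte side.

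Wnt3, a ligand of the canonical branch, had the largest ligand ratios on the oligodendrocyte side. Its brighter probe (mm7 chr11:103925136-103925195, plus strand) gave log2 signals of 9.76 and 9.58 in the oligodendrocyte samples of replicates 1 and 4, and 7.67 and 7.77 in the astrocyte samples. Both oligodendrocyte samples were above both astrocyte samples, with a ratio of 1.95 ± 0.20 (adjusted p = 1.07e-06), or 3.88-fold. The other Wnt3 probe, which lies 1629 bases away in that build, read 8.97 and 9.29 against 7.23 and 7.07, with a ratio of 1.98 ± 0.34 (adjusted p = 2.19e-06). The probes of this gene gave nearly the same difference.

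Wnt2, another ligand that can signal through β-catenin, read 8.78 and 8.74 in oligodendrocytes and 7.27 and 7.05 in astrocytes. The groups did not overlap, and the ratio was 1.60 ± 0.12 (adjusted p = 3.01e-06). Wnt6 was called with both of its probes, whose starts are 100 bases apart. The brighter probe read 8.54 and 8.46 in oligodendrocytes against 8.03 and 7.86 in astrocytes, a ratio of 0.55 ± 0.06 (adjusted p = 0.00343). The dimmer one read 8.34 and 8.37 against 7.18 and 6.87, a ratio of 1.33 ± 0.24 (adjusted p = 1.80e-05). The direction was shared, but the size was not. Wnt10a read 7.89 and 8.07 in oligodendrocytes and 7.27 and 7.17 in astrocytes, a ratio of 0.77 ± 0.20 (adjusted p = 0.000682). With each array centred on its median in place of loess, the brighter Wnt6 probe and Wnt10a were no longer called (adjusted p = 0.584 and 0.234). Neither was called under spike-in scaling (-0.14 and 0.08, adjusted p = 0.278 and 0.559).

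Wnt5b, a ligand mostly linked to signalling without β-catenin, had the largest ligand ratio on the astrocyte side. Its brighter probe read 10.39 and 10.63 in the astrocyte samples and 8.42 and 8.35 in the oligodendrocyte samples. The astrocyte samples were both higher, with a ratio of -2.12 ± 0.22 (adjusted p = 7.15e-07), or 4.36-fold. The dimmer Wnt5b probe read 7.82 and 7.88 against 6.57 and 6.75, a ratio of -1.19 ± 0.08 (adjusted p = 2.12e-05). By the ratio that the scanner software computed, which has no offset, these probes gave -2.35 and -2.39.

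Wnt9a, a ligand of the canonical branch best known from joints and cartilage, depended on the probe. The brighter probe (mm7 chr11:59414739-59414798) read 9.84 and 9.95 in astrocytes and 7.79 and 7.90 in oligodendrocytes, a ratio of -2.05 ± 0.01 (adjusted p = 5.03e-07). The other probe, which starts 2185 bases away, was close to background and read 6.34 and 6.42 in astrocytes and 6.38 and 6.33 in oligodendrocytes. Its ratio was -0.02 ± 0.09 (95% interval -0.28 to 0.24), and the scanner software's ratio was also -0.02. On replicate 4 it was not well above background in oligodendrocytes. The call of Wnt9a thus rested on 1 of its 2 probes. The sequence of the probe that showed no call, on the plus strand at mm7 chr11:59412554-59412613, is given so that its target can be looked up, since the files do not say which exon or UTR a probe lies in.
Wnt9a probe without a call: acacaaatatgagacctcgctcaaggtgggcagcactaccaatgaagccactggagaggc

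Wnt7a, a ligand that acts on brain endothelium together with Reck and Adgra2, read 9.24 and 9.23 in astrocytes and 7.78 and 7.89 in oligodendrocytes. The samples of the cell types did not overlap, and the ratio was -1.40 ± 0.08 (adjusted p = 6.71e-06). Its close relative Wnt7b had a much smaller ratio, although its samples did not overlap either. It read 8.88 and 8.92 in oligodendrocytes and 8.96 and 9.12 in astrocytes, a ratio of -0.14 ± 0.08 that was not called (adjusted p = 0.384, 95% interval -0.40 to 0.12). The difference between both genes' ratios was not tested. Wnt4 and Wnt5a were called with smaller ratios of -0.90 ± 0.02 (adjusted p = 0.000137) and -0.52 ± 0.18 (adjusted p = 0.00649), and neither call held under median centring (adjusted p = 0.114 and 0.675). Wnt5a was not well above background in the oligodendrocyte sample of replicate 4.

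The other tested ligands, Wnt1, Wnt8b, Wnt9b, Wnt11 and Wnt16, were not called and had ratios from -0.19 for Wnt8b to 0.24 for Wnt16. Wnt1, a ligand of the early midbrain and hindbrain, is printed 10 times on each array and so shows the spread within an array. Its ratio was 0.14 on replicate 1 with an SD of 0.089 over the spots, and -0.007 on replicate 4 with an SD of 0.085. The mean of 0.07 ± 0.11 had a 95% interval of -0.19 to 0.33. Wnt16 was not well above background in astrocytes on either array. Its log2 signals were 6.49 and 6.39 in oligodendrocytes and 6.17 and 6.23 in astrocytes. Set against the lowest signal well above background, the mean oligodendrocyte signal was 1.16-fold higher. The ratio of 0.24 lay on the oligodendrocyte side without a call (adjusted p = 0.139, 95% interval -0.02 to 0.50). It was called on that side by the scanner software's ratio (1.37, adjusted p = 7.60e-06), with an offset of 10 (0.52, adjusted p = 0.00535) and with a trended robust prior (adjusted p = 0.00373). Wnt8b, which was not well above background in the oligodendrocyte sample of replicate 4, was called higher in astrocytes by the software's ratio (-0.71, adjusted p = 0.00308). The values of these dim probes depended on the processing.

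**Figure D2:**
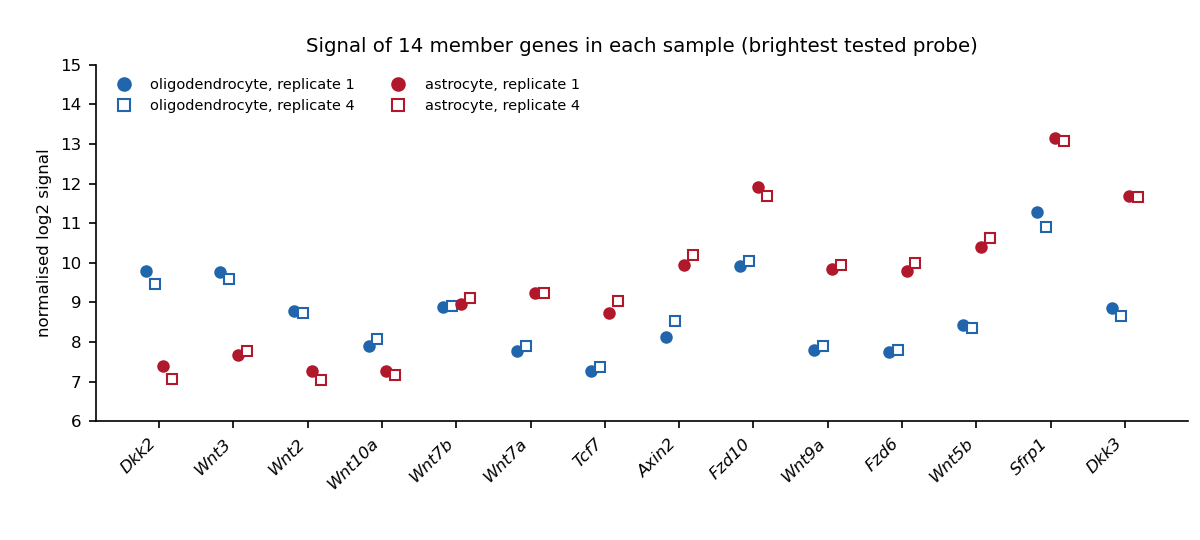
Normalised log2 signal (y axis) of 14 member genes by their brightest tested probe; blue marks are oligodendrocyte and red marks astrocyte samples, with filled circles for replicate 1 and open squares for replicate 4. Heights can be compared within a gene only. For Wnt7b, which was not called, all 4 samples lie between 8.88 and 9.12, with both astrocyte samples above both oligodendrocyte samples.

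Among the Frizzled receptors, the calls all fell on the astrocyte side. Of 15 tested probes 10 were called higher in astrocytes, 0 higher in oligodendrocytes, and 5 passed in neither direction. Their median ratio was -0.90. Of all tested probes, 21.8% were called higher in astrocytes and 18.5% higher in oligodendrocytes. By the brightest probe, 6 of 10 receptor genes were called, against 23.1% of all genes on the astrocyte side. Fzd6, Fzd10, Fzd3, Fzd2 and Fzd4 passed 2-fold on both arrays. Frizzleds are membrane receptors whose outer cysteine-rich domain holds the ligand's lipid.

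Fzd6, which acts with Fzd3 in planar cell polarity, read 9.80 and 10.00 in astrocytes and 7.75 and 7.81 in oligodendrocytes. Its ratio was -2.12 ± 0.10 (adjusted p = 4.59e-07), or 4.35-fold. Fzd3, needed for the growth of long axon tracts, read 9.78 and 9.81 in astrocytes and 8.14 and 8.19 in oligodendrocytes with its brighter probe. Both astrocyte samples were higher, with a ratio of -1.63 ± 0.01 (adjusted p = 2.23e-06). The dimmer Fzd3 probe gave -1.09 and -1.25 on replicates 1 and 4, a mean of -1.17 ± 0.11 (adjusted p = 2.56e-05).

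Fzd10 read 11.91 and 11.67 in astrocytes and 9.92 and 10.04 in oligodendrocytes with its brighter probe, a ratio of -1.81 ± 0.25 (adjusted p = 2.29e-06). The groups did not overlap. Its dimmer probe gave -0.90 ± 0.06 (adjusted p = 0.000140), a call that did not hold under median centring (adjusted p = 0.115). Fzd4, the receptor of norrin in retinal and brain vessels, read 8.99 and 8.91 in astrocytes and 7.88 and 7.87 in oligodendrocytes, a ratio of -1.08 ± 0.05 (adjusted p = 4.01e-05). Fzd1 gave -0.64 ± 0.05 (adjusted p = 0.00134), also not called under median centring (adjusted p = 0.251).

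Fzd2 and Fzd7 are close relatives, and 1 probe of each has a similar target. Fzd2 read 11.50 and 11.17 in astrocytes and 10.07 and 9.84 in oligodendrocytes with its brighter probe, a ratio of -1.38 ± 0.06 (adjusted p = 7.16e-06). Its other probe gave -1.07 ± 0.09 (adjusted p = 4.59e-05). For Fzd7 the probes disagreed. The brighter one read 8.31 and 8.41 in oligodendrocytes and 8.26 and 8.42 in astrocytes, a ratio of 0.02 ± 0.04 that was not called (95% interval -0.24 to 0.28). The dimmer one read 7.66 and 7.56 against 8.55 and 8.40, a ratio of -0.87 ± 0.04 (adjusted p = 0.000182, and 0.145 under median centring).

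Over the 1696 pairs of tested probes from different member genes, aligned without gaps over at least 40 bases, this dimmer Fzd7 probe and the brighter Fzd2 probe were the most alike. They had 42 of 50 overlapping bases in common (84.0%), and the next pair had 33. The probes are shown 5′ to 3′ with the shared bases in capitals. They lie on the plus strands of mm7 chr11:102715340-102715399 for Fzd2 and chr1:59735681-59735740 for Fzd7.
Fzd2 brighter probe: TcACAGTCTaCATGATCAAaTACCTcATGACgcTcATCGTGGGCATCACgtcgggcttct
Fzd7 dimmer probe: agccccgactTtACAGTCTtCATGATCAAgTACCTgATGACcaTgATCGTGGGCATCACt
The Fzd7 probe that resembles the Fzd2 probe gave an astrocyte-sided ratio, as Fzd2 did, and the Fzd7 probe elsewhere in the gene did not. Binding of Fzd2 RNA to the Fzd7 probe was not tested, and the direction of Fzd7 is uncertain here.

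Fzd5, Fzd8 and Fzd9 were not called. Their probes had ratios of -0.10 ± 0.16 for Fzd5, -0.25 ± 0.16 for the brighter and -0.28 ± 0.20 for the dimmer Fzd8 probe, and 0.17 ± 0.06 for Fzd9. The dimmer Fzd8 probe was called with a trended robust prior (adjusted p = 0.0349). The co-receptors did not separate the cell types either. Lrp5 read 9.37 and 9.55 in oligodendrocytes and 9.73 and 9.53 in astrocytes, and Lrp6 read 8.49 and 8.78 against 8.79 and 8.59. The samples overlapped for both genes. Lrp5 had a ratio of -0.17 ± 0.27 (adjusted p = 0.352, 95% interval -0.46 to 0.12) and Lrp6 one of -0.06 ± 0.35 (adjusted p = 0.804, 95% interval -0.37 to 0.26).

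The antagonists held the member with the largest ratio in each direction, both of them of the Dickkopf family. The group counts the membrane-bound Apcdd1 with the secreted antagonists. Of 11 tested antagonist probes, 1 was called higher in oligodendrocytes, 4 higher in astrocytes and 6 in neither, around a median of -0.10. Over all tested probes, these directions held 18.5% and 21.8%. Dkk2, which binds Lrp5 and Lrp6, read 9.80 and 9.47 in oligodendrocytes and 7.39 and 7.07 in astrocytes (probe at mm7 chr3:131976322-131976381). Both oligodendrocyte samples exceeded both astrocyte samples, and the ratio was 2.41 ± 0.007 (adjusted p = 2.05e-07, 95% interval 2.15 to 2.66), or 5.30-fold. Dkk3, a divergent member of the family that is not a typical Wnt inhibitor, had the opposite direction. It read 11.69 and 11.67 in astrocytes and 8.86 and 8.65 in oligodendrocytes (probe at mm7 chr7:108032840-108032899, minus strand). The ratio was -2.93 ± 0.13 (adjusted p = 8.49e-08, 95% interval -3.19 to -2.66), or 7.61-fold.

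Sfrp1 and Sfrp4, secreted proteins with a Frizzled-like domain that bind Wnts, were also higher in astrocytes. Sfrp1 read 13.15 and 13.08 in astrocytes and 11.27 and 10.90 in oligodendrocytes with its brighter probe, a ratio of -2.03 ± 0.22 (adjusted p = 9.33e-07). The dimmer Sfrp1 probe had -1.64 on replicate 1 and -0.74 on replicate 4, a mean of -1.19 ± 0.64 (adjusted p = 0.000570). It had the widest spread between the arrays of any called member probe. Sfrp4 read 8.73 and 8.89 in astrocytes and 7.61 and 7.62 in oligodendrocytes. Its samples did not overlap between the cell types, with a ratio of -1.19 ± 0.11 (adjusted p = 2.26e-05).

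Frzb, another Frizzled-like antagonist, read 7.88 and 8.07 in astrocytes and 7.82 and 7.47 in oligodendrocytes. The oligodendrocyte samples were both lower, but the arrays differed in size, with ratios of -0.06 and -0.61 and a mean of -0.34 ± 0.39 that was not called (adjusted p = 0.096). The call depended on the setting, since Frzb was called higher in astrocytes with an offset of 10 (-0.43, adjusted p = 0.0292) and with a trended robust prior (adjusted p = 0.0146). Wif1, which binds Wnt proteins directly, read 6.61 and 6.53 in oligodendrocytes and 6.50 and 6.55 in astrocytes, overlapping at a low signal with a ratio of 0.04 ± 0.09 (adjusted p = 0.825, 95% interval -0.22 to 0.30). Sfrp2 and Sfrp5 were not called, with ratios of -0.10 ± 0.20 and -0.02 ± 0.14.

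Apcdd1, a membrane-bound inhibitor that is itself a target of the pathway, did not separate the cell types. Its brighter probe read 11.50 and 11.60 in oligodendrocytes and 11.37 and 11.61 in astrocytes, a ratio of 0.06 ± 0.10 (adjusted p = 0.749, 95% interval -0.20 to 0.32). The dimmer probe gave 0.07 ± 0.11. The samples overlapped at a signal far from background. The interval of the brighter probe holds only for the zero set by loess. Under spike-in scaling that probe gave -0.63 (adjusted p = 0.000608) and the dimmer one -0.62 (adjusted p = 0.000700). Both were then called higher in astrocytes.

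In the cytoplasm, Axin2 alone passed 2-fold. Of 8 tested probes of Axin, Dvl and Ctnnb1, 1 was called higher in astrocytes, 1 higher in oligodendrocytes and 6 were not called. Those directions held 21.8% and 18.5% of all tested probes. Axin2, a scaffold of the destruction complex and a widely used readout of canonical signalling, read 9.95 and 10.20 in astrocytes and 8.12 and 8.52 in oligodendrocytes. All astrocyte samples were higher, with a ratio of -1.75 ± 0.11 (adjusted p = 1.56e-06), or 3.37-fold (probe at mm7 chr11:109059707-109059766). Whether canonical signalling differed between the cell types was not tested. Axin1, the relative of Axin2, gave -0.17 ± 0.08 and was not called (adjusted p = 0.311). Dvl1, Dvl2 and Dvl3, the Dishevelled proteins that sit below the receptors, were not called, with ratios from -0.25 for the brighter Dvl1 probe to 0.001 for Dvl3.

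Ctnnb1, which encodes β-catenin, gave small ratios whose sign depended on the probe. The brightest tested probe read 14.34 and 14.18 in oligodendrocytes and 14.52 and 14.64 in astrocytes, a ratio of -0.32 ± 0.20 that missed the threshold (adjusted p = 0.0668). A dimmer probe read 10.16 and 10.01 against 9.83 and 9.68 and was called on the oligodendrocyte side, at 0.33 ± 0.004 (adjusted p = 0.0439). This call was kept in 7 of 14 settings, this one included. It was lost with an offset of 10 (adjusted p = 0.0619), by the scanner software's ratio (0.43, adjusted p = 0.0634), with a trended robust prior (adjusted p = 0.0774), with the array as a block (adjusted p = 0.0658) and under median centring (0.23), and spike-in scaling turned its sign (-0.36, adjusted p = 0.0131). Another probe, printed 10 times, had 3 spots marked as outliers and was left out of the test. With those spots kept it gave -0.54 and -0.24 on replicates 1 and 4, a mean of -0.39 (adjusted p = 0.0326), and with only the marked spots dropped it gave the same mean to that precision (adjusted p = 0.0307). The brightest tested and the repeated probe lay on the astrocyte side and the dimmer one on the other, and all were below 2-fold on both arrays.

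Of the nuclear factors, Tcf7 was called higher in astrocytes with both probes, and the direction of Lef1 depended on the scaling. Tcf7, which encodes TCF1, read 8.74 and 9.03 in astrocytes and 7.28 and 7.38 in oligodendrocytes with its brighter probe, a ratio of -1.56 ± 0.13 (adjusted p = 3.79e-06). The samples did not overlap. The dimmer Tcf7 probe gave -0.64 ± 0.03 (adjusted p = 0.00129, and 0.444 under median centring). Lef1 read 7.06 and 7.27 in oligodendrocytes and 6.76 and 6.71 in astrocytes with its brightest probe, a ratio of 0.43 ± 0.18 (adjusted p = 0.0179). This call of a dim gene was not stable. It was lost without background subtraction (0.36, adjusted p = 0.0534) and under median centring (adjusted p = 0.677). The other tested Lef1 probe gave 0.24 ± 0.12 and was not called (adjusted p = 0.144), although it was with an offset of 10 (0.45, adjusted p = 0.0168), a trended robust prior (adjusted p = 0.00870) and the scanner software's ratio (0.92, adjusted p = 0.000418). Spike-in scaling gave both a negative sign (-0.26 and -0.45). The remaining Lef1 probe was not well above background.

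**Figure D3:**
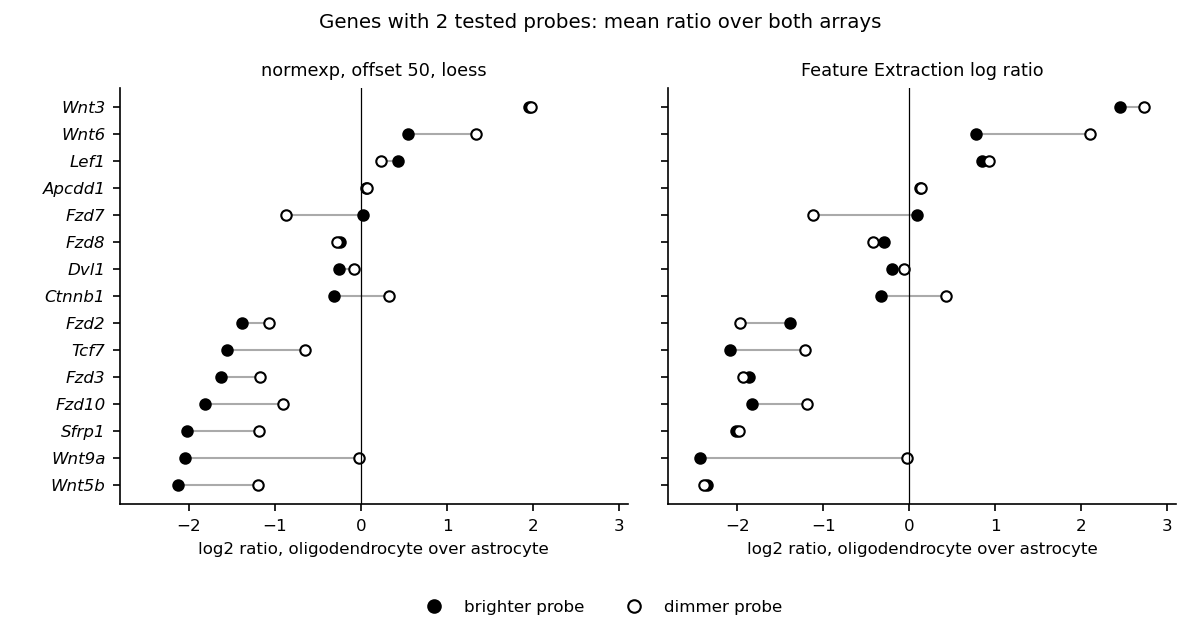
Mean log2 ratio over both arrays (x axis) of the brighter (filled) and dimmer (open) tested probe of the 15 member genes with 2 tested probes, with normexp, an offset of 50 and loess (left) and by the scanner software's own log ratio (right). Wnt9a, Fzd7 and Ctnnb1 differ between probes in both panels, while Wnt5b and Sfrp1 differ in the left panel and nearly coincide in the right one.

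Of the 15 member genes with 2 tested probes, 11 had both probes called alike, and in 2, Ctnnb1 and Fzd7, the probes had opposite signs. The brighter probe had the larger ratio in 9 of 15 genes, and in 5 of 15 by the scanner software's ratio, which adds no offset. For Sfrp1 the dimmer probe moved from -1.19 to -1.98, beside -2.03 and -2.01 for the brighter one. For Wnt9a the dimmer probe stayed at -0.02 under both. Other called probes whose ratio grew by more than 1.5 times with the software's value were Wnt5a (-1.83), Wnt10a (1.27) and the brightest Lef1 probe (0.85). The dimmer probes of Wnt5b (-2.39), Wnt6 (2.10), Fzd2 (-1.96), Fzd3 (-1.93) and Tcf7 (-1.21) did so too. All of them kept their direction. Of further probes that the file lists under older names, RefSeq assigns 1 each to Fzd3, Fzd5 and Lrp6. The Fzd3 one was called higher in astrocytes (-2.11 ± 0.04, adjusted p = 4.34e-07), as were both member probes of that gene, and those of Fzd5 and Lrp6 were not called.

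Upstream sequence was read for members from RefSeq's table for GRCm38.p6, a different build from the probe coordinates. It held 42 windows, from 250 bases before to 50 after a start, for 34 of the 50 genes. Each window was searched on both strands for CTTTGAT, a core of the motif bound by Tcf and Lef factors. It was found in 2 of the 42 member windows (4.76%), 1 each of Wnt5b and Wnt11, and in 1225 of all 32851 windows (3.73%), so the share among members was near that of all windows. Member windows were richer in GC than all windows (medians of 67.3% and 52.7%) and in CpG (medians of 25.5 and 7). The 250 bases before the start are shown for Dkk2 and Wnt3, which had the largest called ratios on the oligodendrocyte side, for Wnt5b, which had the largest on the astrocyte side among genes in that table, and for Axin2. Capitals mark the motif, which in Wnt5b begins 71 bases before the start.
Dkk2 (GRCm38.p6 chr3:132085042-132085291, plus strand): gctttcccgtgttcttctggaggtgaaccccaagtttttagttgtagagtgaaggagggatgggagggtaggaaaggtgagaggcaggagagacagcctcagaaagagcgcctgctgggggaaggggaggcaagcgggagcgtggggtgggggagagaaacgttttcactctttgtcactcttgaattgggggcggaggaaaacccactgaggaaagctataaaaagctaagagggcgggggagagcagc
Wnt3 (GRCm38.p6 chr11:103773925-103774174, plus strand): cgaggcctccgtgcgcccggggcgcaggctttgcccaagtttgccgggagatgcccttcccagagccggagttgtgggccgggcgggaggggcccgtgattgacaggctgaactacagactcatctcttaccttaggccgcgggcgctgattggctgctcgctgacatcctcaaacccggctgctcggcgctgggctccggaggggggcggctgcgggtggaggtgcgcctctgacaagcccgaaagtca
Wnt5b (GRCm38.p6 chr6:119449387-119449636, minus strand): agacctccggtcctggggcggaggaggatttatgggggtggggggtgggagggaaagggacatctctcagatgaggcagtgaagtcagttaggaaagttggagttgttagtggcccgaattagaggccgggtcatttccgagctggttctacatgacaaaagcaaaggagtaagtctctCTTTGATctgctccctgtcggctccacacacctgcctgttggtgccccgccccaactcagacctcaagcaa
Axin2 (GRCm38.p6 chr11:108920099-108920348, plus strand): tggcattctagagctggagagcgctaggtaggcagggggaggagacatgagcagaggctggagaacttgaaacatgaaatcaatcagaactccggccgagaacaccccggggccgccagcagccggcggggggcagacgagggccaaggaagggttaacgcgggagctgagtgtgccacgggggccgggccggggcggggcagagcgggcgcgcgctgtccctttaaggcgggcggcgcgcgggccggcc
The Dkk2, Wnt3 and Axin2 windows hold no match to these letters, which says nothing about the factors themselves. Wnt5b has 3 windows in the table, of which 1 held the motif.

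Other genes of the pathway were described by a list of 79 genes, of which 78 had a probe and 77 were tested. Of these, 30 were called higher in astrocytes, 17 higher in oligodendrocytes and 30 in neither direction. Over all 21896 genes by their brightest probe, 23.1% and 19.1% were called in these directions, and the oligodendrocyte-sided count of the list was near that share. The median ratio of the list was -0.26. Celsr1, a planar cell polarity cadherin, had the largest ratio on the astrocyte side (-2.87 ± 0.07, adjusted p = 8.42e-08), with log2 signals of 12.57 and 12.56 in astrocytes and 9.75 and 9.63 in oligodendrocytes. It was followed by the antagonist Sostdc1 (-2.38 ± 0.03), the Fzd4 ligand Ndp (norrin, -2.30 ± 0.27), the glypican Gpc4 (-2.21 ± 0.36) and the R-spondin receptor Lgr4 (-2.03 ± 0.008). Of 3 tested Lgr4 probes, 2 were called higher in astrocytes and 1 was not called (0.45). Norrin and its receptor Fzd4 were thus both called higher in astrocytes, as was their partner Tspan12. The co-receptors Lrp5 and Lrp6 were not called.

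On the oligodendrocyte side, Prickle1, a cytoplasmic planar cell polarity protein, read 13.35 and 13.52 in oligodendrocytes and 9.51 and 9.95 in astrocytes, a ratio of 3.71 ± 0.19 (adjusted p = 5.78e-08), or 13.1-fold. It was followed by the brightest probe of Apc, a scaffold of the destruction complex (1.74 ± 0.05), the co-repressor Tle2 (1.70 ± 0.21), the Dishevelled-binding inhibitor Nkd2 (1.56 ± 0.12) and Adgra2, the partner of Reck in Wnt7 signalling (1.42 ± 0.20). The Apc call rested on 1 of 6 tested probes. The other 5 had ratios from -0.20 to 0.03 and were not called, so no direction is given for Apc as a gene. The other tested Prickle1 and Nkd2 probes were called on the same side. Reck, unlike its partner Adgra2, was called higher in astrocytes (-1.23 ± 0.14, adjusted p = 2.06e-05).

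Tcf7l2 was called higher in oligodendrocytes, with log2 signals of 12.02 and 12.24 against 11.35 and 11.48 in astrocytes. Its ratio was 0.71 ± 0.06 (adjusted p = 0.000719), a call lost under median centring (0.59, adjusted p = 0.486) and under spike-in scaling (0.02, adjusted p = 0.863). Of its 4 tested probes 2 were called, both on the oligodendrocyte side, and the uncalled ones gave 0.16 and 0.15. Daam2, which links Dishevelled to actin and to Wnt receptor complexes, was called higher in astrocytes (-1.50 ± 0.27, adjusted p = 9.50e-06). Of the genes that Wnt-producing cells need, the ligand carrier Wls gave -0.96 and -0.02 on replicates 1 and 4 and was not called (mean -0.49 ± 0.67, adjusted p = 0.0675). It was called higher in astrocytes with an offset of 10 (adjusted p = 0.0170) and with a trended robust prior (adjusted p = 0.0172), and its other tested probe gave -0.15 without a call. The lipid-adding enzyme Porcn was not called either (-0.22 ± 0.09, adjusted p = 0.164).

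**Figure D4:**
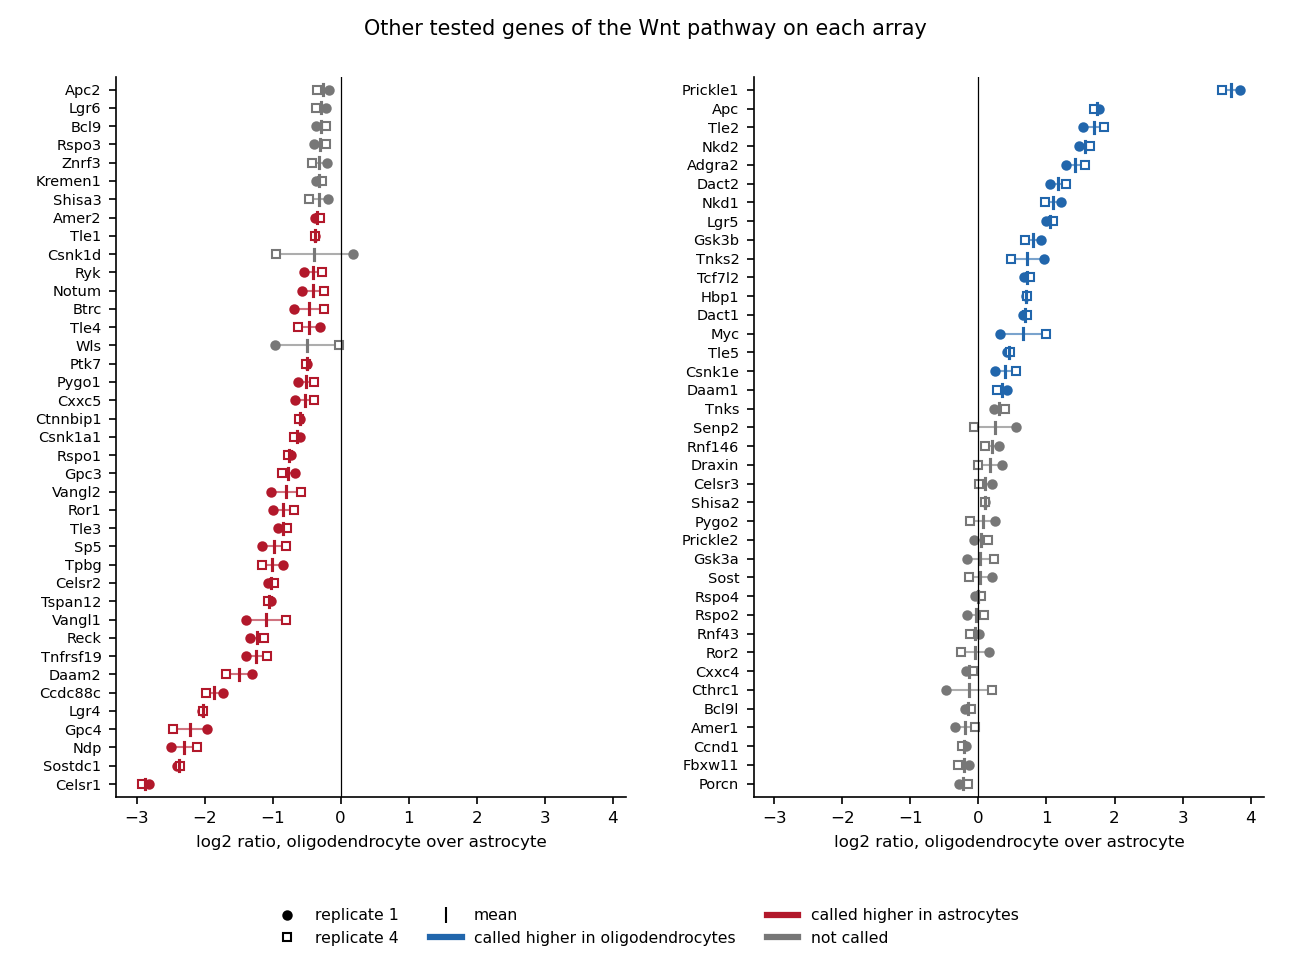
Log2 ratio of oligodendrocyte over astrocyte signal (x axis) for the 77 tested genes of the pathway list outside the members, each by its brightest tested probe; filled circles are replicate 1, open squares replicate 4 and ticks their mean, coloured by call. Prickle1 (3.71) and Celsr1 (-2.87), both genes of planar cell polarity, are at the ends of the range.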

How the data were processed

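The deposited scanner files hold spot intensities of each channel, read with Agilent Feature Extraction 9.5.3.1, per the file headers. Mean signal and local background intensity were used as the authors deposited them. The deposited log10 ratio of Cy5 over Cy3 was background-subtracted and dye-normalised by that software, per the file headers, and served, converted to log2, as an alternative, as did the authors' value table of log10 ratios. Flags for spots above background or marked as outliers were taken as deposited. The headers name mm7 as the build of the array design, and some listed spans exceed the probe.

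Background was corrected with normexp (offset 50) in limma 3.58.1 (R 4.3.3), ratios were normalised by loess with control spots at weight 0, oriented as oligodendrocyte against astrocyte, and averaged over a probe's spots. Because of the offset, ratios of dim probes lie closer to 0. To be tested, a probe had to be well above background on both arrays in at least 1 cell type and free of marked spots. Signals per sample come from loess followed by Aquantile. Probes were tested with lmFit and eBayes, which had 1 residual degree of freedom and a prior of 8.5 degrees of freedom. The labels number the replicates without saying whether cultures were separate, so the p-values reflect only how far these 2 arrays differ, which may be technical spread. The series text speaks of more samples per cell type; other arrays were not analysed here. Slide and scan number are the same in both headers, which left no batch to test. Between 76.6% and 83.9% of 43379 gene spots were well above background per channel, and 0 were saturated. Precision is limited by having 2 arrays.

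The script was tested on simulated data. The members and lists were chosen with earlier results of these data known. Values per array were given for called member probes at least 2-fold apart on both arrays and for Lef1, Tcf7, Ctnnb1, Axin2, Wif1, Frzb, Apcdd1, Lrp5 and Lrp6. Other members were given by range with examples, and some of these, such as Wnt7b and the probe pairs, were chosen after their values were seen. Of the other pathway genes, the 5 largest called ratios per direction and Tcf7l2, Daam2, Wls and Porcn were named. Tspan12 and Reck were named after their values were seen. A pathway gene was represented by its brightest tested probe, named through RefSeq tables (GRCm38.p6). The alternatives tried were an offset of 10, no background subtraction, the software's log ratio, the value table, median centring, scaling between arrays, spike-in scaling, other filters on dim probes, marked spots kept or dropped singly (the latter added after seeing the data), 1 probe for each gene, a trended robust prior, separate channels with the array as a block, and leaving out each array.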

Additional observations from a re-analysis of the deposited data

How the results depend on the processing

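The zero of the ratio mattered most. The 320 spike-in spots had a mean log2 ratio of 0.69, and setting it to 0 moved the median of all probes to -0.69, leaving 5 member probes called higher in oligodendrocytes and 51 in astrocytes, and 8 and 62 of the other pathway genes; of all called probes 6.03% were then on the oligodendrocyte side, against 45.9%. This setting subtracts 1 value per array from every probe, so the order of the probes stays as it was. Ratios whose sign turned there were those of Apcdd1 (-0.63 and -0.62), Wnt1 (-0.62), Lef1 (-0.26 and -0.45), Dvl3 (-0.69), the brighter Wnt6 probe (-0.14), Wif1 (-0.65), Fzd9 (-0.52), the dimmer Ctnnb1 probe (-0.36), the brighter Fzd7 probe (-0.67) and Wnt16 (-0.45). The called oligodendrocyte-sided ratios of Dkk2 (1.72) and Wnt3 (1.27 and 1.29) kept their direction and call, as did Wnt2 (0.92) and the dimmer Wnt6 probe (0.64), while Wnt10a (0.08, adjusted p = 0.559) and Tcf7l2 (0.02, adjusted p = 0.863) lost theirs. Median centring gave 5 member probes higher in oligodendrocytes and 17 in astrocytes, and 7 and 13 of the other pathway genes (37.3% of all called probes on the oligodendrocyte side). It called 12.1% of all probes in place of 40.3%, and 10 member probes lost their call with 0 reversed. With 1 probe for each gene, 6 of 42 members were called higher in oligodendrocytes and 15 in astrocytes, and 0 of the calls changed. Fzd3 and Fzd5 were represented there by probes listed under older names and so did not count as members. The other alternatives kept the member counts between 8 and 10 and between 22 and 25, and those of the other pathway genes between 15 and 17 and between 28 and 34. The count of member probes at least 2-fold apart on both arrays, 21, was between 18 and 29 under the other processing, and 21 and 22 without either array. The ratio within each array already pairs the cell types, and a fit of separate channels with the array as a block called 8 and 23 member probes. Depth is not defined for arrays; signals close to background, as for Lef1, Wnt16, Wnt8b and Wnt5a, limit what can be read, and with 2 arrays a missed call does not show equal levels.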

Other observations

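The array files list a gene under the older name Tcf3 that RefSeq names Tcf7l1, a repressive member of the Tcf family. It was not a member by its name in the files. Its ratio of oligodendrocyte over astrocyte signal was -0.21 over the 2 arrays, which was not called (limma adjusted p = 0.229).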
